A study of Homo sapiens with 4 samples.

Results

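CDKN2B encodes p15INK4B, an inhibitor of the cyclin-dependent kinases (CDKs) that carry a cell from G1 into S phase. Its signal was followed in a human embryonal carcinoma cell line after knock-down of OCT4, NANOG or SOX2, the transcription factors that hold such cells undifferentiated. CDKN2B was chosen because its on/off state differed between the knock-downs, so its levels and differences are a description with no test. The on/off state came from the detection score that the array software gives each probe on each array, from 0 to 1, with a score of at least 0.99 read as detected. The gene was found by its probe, GI_17981693-A, and no other probe carried its name in the study's table of changed genes. It is 1 of 2908 genes named here, through 2985 of the 47293 probes on the array (6.31%). That table lists genes the study called changed in its knock-downs on these same samples. The copy at hand holds the OCT4 lists and the NANOG lists, of which the list of genes lower in the NANOG knock-down breaks off early, and none of the entries of the SOX2 lists. A gene with no name here may still have a probe on the array.

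NCCIT cells, an established line from a germ cell tumour, were, by the labels, seeded at 70000 per square cm and harvested on day 2.5, while the study's methods give a lower density and other days. Mock cells received transfection reagent alone, and the other groups received reagent with endoribonuclease-prepared siRNA (esiRNA) against OCT4, NANOG or SOX2. Each of the 4 groups had 3 biological replicates, each on an array of its own, so the number of arrays limits the precision. Total RNA (300 ng) was amplified and hybridized to Illumina BeadChips, and 23.7 to 27.2% of probes were detected on an array.

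p15INK4B belongs to the INK4 family, whose members bind CDK4 and CDK6 and keep D cyclins from activating them. With these kinases held back, the retinoblastoma protein stays unphosphorylated, E2F factors stay repressed and the cell waits in G1. The gene lies on chromosome 9p21 beside CDKN2A, in a locus that Polycomb complexes silence in stem cells. In epithelial cells it is known as a gene that TGF-beta induces through SMAD factors and SP1, while MYC with its partner Miz-1 represses it. Pluripotent cells have a short G1 phase, and INK4 inhibitors are known to be low in them.

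The promoter is shown because CDKN2B switched state together with other genes, and to look in it for motifs of reported regulators. It covers the 242 bases before the gene's outer end in the RefSeq gene table, and stops a few bases short of the start that the promoter table uses: chr9:22009314-22009555 on the minus strand of GRCh38.p14 (RefSeq promoter table), written 5′ to 3′ with GC boxes in capitals.
CDKN2B promoter: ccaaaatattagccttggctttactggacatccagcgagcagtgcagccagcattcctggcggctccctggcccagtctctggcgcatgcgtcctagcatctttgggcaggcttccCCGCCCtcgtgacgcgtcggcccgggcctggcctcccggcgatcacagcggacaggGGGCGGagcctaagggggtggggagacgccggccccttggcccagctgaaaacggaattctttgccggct
The GC box, GGGCGG, to which SP1 and related factors bind, was found 2 times: at bases 173 to 178 of the printed strand, and at bases 117 to 122 on the opposite strand. Of 35115 other promoters of the same length, 41.7% held this motif on either strand. The SMAD element CAGAC, present in 37.1% of them, had 0 matches. The E-box CACGTG of MYC (6.09%), the octamer ATGCAAAT of OCT4 (1.6%) and the SOX motif CATTGT (9.1%) had 0 matches as well. A match or its absence describes these letters in this window only.

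The knock-downs were made with esiRNA from these amplicons, whose primers are given to show which stretch of each message was targeted.
OCT4 forward primer: gagaaggagaagctggagca
OCT4 reverse primer: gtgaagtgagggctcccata
SOX2 forward primer: catcacccacagcaaatgac
SOX2 reverse primer: ggaaagttgggatcgaacaa
NANOG 1 forward primer: aactggccgaagaatagcaa
NANOG 1 reverse primer: ctcgctgattaggctccaac
NANOG 2 forward primer: gactgagctggttgcctcat
NANOG 2 reverse primer: tctggaaccaggtcttcacc
The study lists 2 amplicons for NANOG, and the files do not say which of them was used for these arrays.

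CDKN2B was not detected on any mock array. Its raw signal, the mean bead intensity, was 96.8, 93.6 and 102.8 in mock replicates 1, 2 and 3, with detection scores of 0.361, 0.554 and 0.835. Under NANOG knock-down the raw signal was 107.8, 111.5 and 101.9, with scores of 0.677, 0.902 and 0.688, again short of detection. Under OCT4 knock-down the raw signal was 797.3, 649.2 and 629.0, with a score of 1 on each array. Every OCT4 knock-down array was thus above every mock and NANOG knock-down array. Under SOX2 knock-down the raw signal was 617.9, 603.1 and 476.6, also with a score of 1 on each array. The gene was on in 6 arrays and off in 6, with no array of a group departing from the others in state. The highest score short of detection was 0.902, on NANOG replicate 2, and the lowest score of a detected array was 1.

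**Figure D1:**
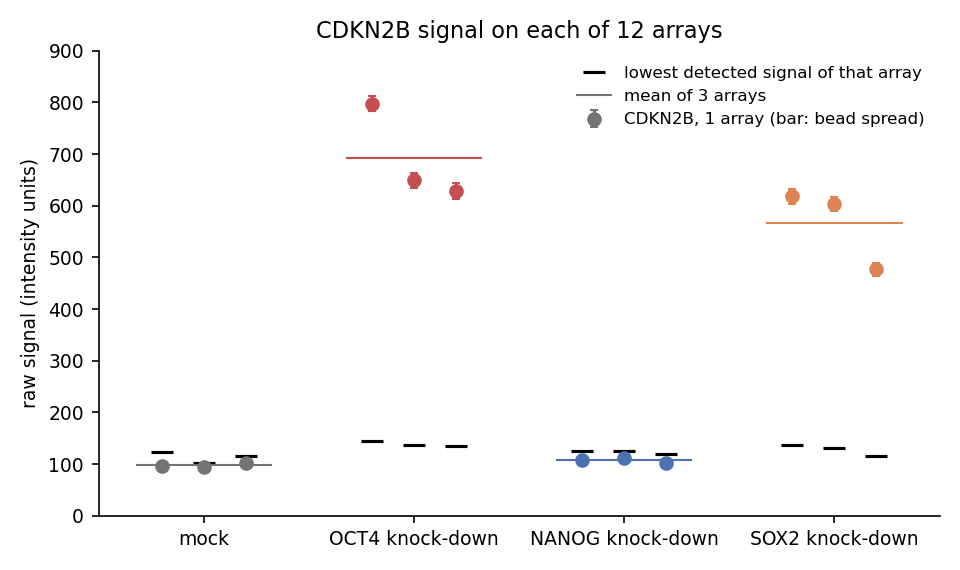
Raw signal of the CDKN2B probe (intensity units) on each of 12 arrays, with the bead spread as bars, the mean of 3 arrays as a line and the lowest detected signal of each array as a black dash. OCT4 and SOX2 knock-down arrays lie between 476.6 and 797.3, mock and NANOG knock-down arrays between 93.6 and 111.5.

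The lowest signal that counted as detected was 124, 102.9 and 116.1 on the mock arrays and 125.4, 124.4 and 119 on the NANOG knock-down arrays, above CDKN2B each time. The background signal of an array was read from the probes that score in the middle of the detection scale. Less this background, CDKN2B gave -3.0, 1.1 and 8.0 in mock and 3.8, 11.2 and 4.0 in the NANOG knock-down. In these groups the probe therefore read at the level of an empty probe, and a low amount of transcript could not be told from none. Less background, the OCT4 knock-down gave 679.3, 537.7 and 518.8. The SOX2 knock-down gave 508.4, 496.0 and 373.0. The bead spread, which the files give beside each signal without saying whether it is an SD or a standard error, was 12.3 to 15.9 on these 6 arrays and 4.1 to 4.9 on the others.

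Group means of raw signal were 97.7 ± 4.67 (SD, n = 3) in mock and 107 ± 4.84 in the NANOG knock-down, against 692 ± 91.9 in the OCT4 knock-down and 566 ± 77.7 in the SOX2 knock-down. The SD was 4.78, 4.52, 13.3 and 13.7% of the mean in that order, but in mock and the NANOG knock-down nearly all of the signal was background, so these shares do not compare the groups' spread. After background correction and quantile normalization, which gives all arrays the same distribution, the mean log2 level was 6.17 ± 0.12 in mock and 6.26 ± 0.08 in the NANOG knock-down. It was 8.99 ± 0.06 in the OCT4 knock-down and 9.07 ± 0.11 in the SOX2 knock-down. Mock and the NANOG knock-down overlapped and did not differ beyond their spread.

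The order of the OCT4 and SOX2 knock-downs depended on the scale. Raw signals did not overlap and were higher in the OCT4 knock-down, whose arrays were also brighter as a whole, with a median signal of 115.9 to 124.2 against 109.1 to 115.2. Normalized log2 levels did overlap, at 9.06, 8.96 and 8.94 in the OCT4 knock-down and 9.08, 9.16 and 8.95 in the SOX2 knock-down. The difference, OCT4 minus SOX2, was -0.08 ± 0.08 (SE) on that scale and 0.11 when arrays were scaled to a common median instead. The authors' table of group means gives 350.599 for the OCT4 knock-down, 388.666 for the SOX2 knock-down and no value for CDKN2B in mock or the NANOG knock-down. No order between these knock-downs is therefore read from the data.

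On the normalized log2 scale CDKN2B was higher than in mock by 2.82 ± 0.08 (SE) in the OCT4 knock-down and by 2.90 ± 0.08 in the SOX2 knock-down. Because mock was off on every array, a fold is given only as a bound, against the lowest detected level of each mock array or the probe's own level where higher. The OCT4 knock-down was at least 5.48-fold higher than mock, and the SOX2 knock-down at least 5.79-fold. Against the NANOG knock-down, which shares no array with mock, the OCT4 knock-down was at least 5.33-fold higher and the SOX2 knock-down at least 5.64-fold. The NANOG knock-down minus mock was 0.09 ± 0.08, turned to -0.08 with cyclic loess normalization, and no fold is given because the gene was off in both groups. An offset added before taking logs draws these differences toward 0: with an offset of 16 in place of 50, the OCT4 knock-down minus mock was 3.64 and the SOX2 knock-down minus mock was 3.73. Subtracting the background, scaling and then raising low values to 20, which was chosen after seeing the data, gave 4.57 and 4.48.

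The 12374 probes tested are those detected on all 3 arrays of at least 1 group, and the histograms of their differences place CDKN2B among them. No rank is given for it, because its mock level was at background. The 3 comparisons with mock share the mock arrays, so the values stand side by side and are not independent of each other.

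**Figure D2:**
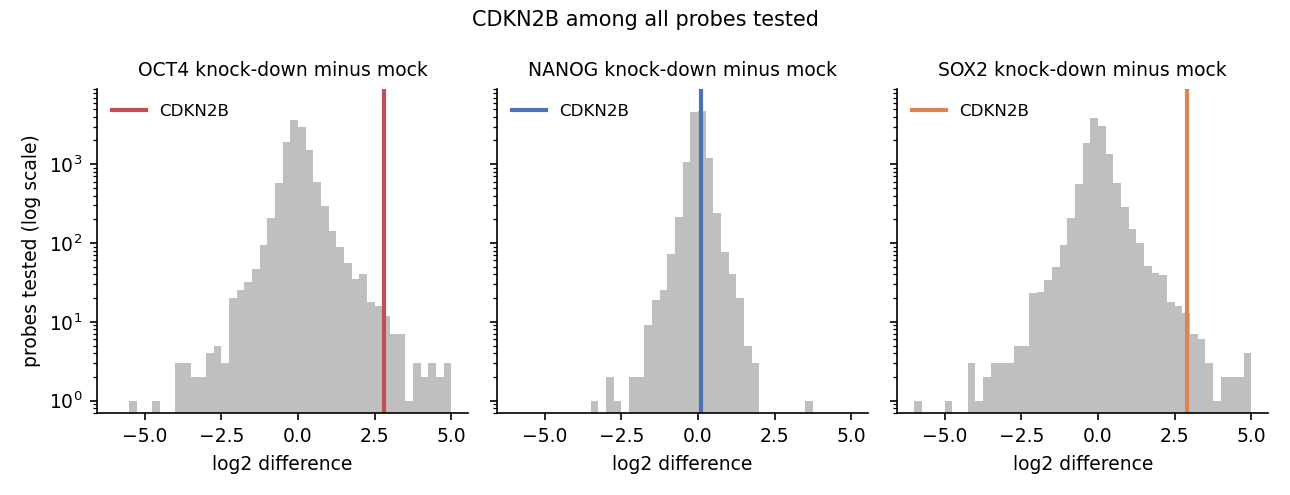
Number of probes tested (log scale) by log2 difference from mock in each knock-down, with CDKN2B as a coloured line. CDKN2B lies at 2.82 and 2.90 in the OCT4 and SOX2 knock-downs and at 0.09 in the NANOG knock-down.

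The labels were checked on the targeted messages. POU5F1, the gene of OCT4, fell by 2.95 ± 0.08 on the log2 scale in the OCT4 knock-down (limma, adjusted p = 2.3e-15), lower on 3 of 3 arrays, of which 1 still detected it, so that the size rests largely on values at background. In the SOX2 knock-down it fell too and was off on all 3 arrays, at least 7.33-fold below mock. With NANOG silenced POU5F1 was at -0.38 ± 0.08, not called. NANOG itself fell by 1.40 ± 0.07 in its own knock-down (limma, adjusted p = 1.35e-10) and stayed detected on all 3 arrays. NANOG was off in the other knock-downs, at least 4.36-fold below mock with OCT4 silenced and at least 4.43-fold with SOX2 silenced. CDKN2B was thus on in the groups where NANOG transcript was undetected, and off in mock and where NANOG was reduced but still detected. POU5F1 split the groups in nearly the same way, with 1 OCT4 knock-down array still detecting it. The part of either gene in the CDKN2B difference was not tested. SOX2 has no probe with a name here, and the study states that its message was too low for the arrays and was followed by real-time PCR, so its knock-down could not be checked in these files.

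A probe is called below when its limma p, adjusted by Benjamini-Hochberg over all 12374 probes tested, is under 0.05 and its difference is at least 1.5-fold. In the OCT4 knock-down 8.58% of probes were called higher than mock and 6.13% lower. NANOG knock-down had 2.21% called higher and 1.96% lower. In the SOX2 knock-down 8.72% were called higher and 6.09% lower. Between knock-downs, OCT4 against NANOG gave 7.48% higher and 4.95% lower, and SOX2 against NANOG gave 7.71% higher and 5.15% lower. OCT4 against SOX2, the pair of groups that both had CDKN2B on, gave 16 probes higher (0.129%) and 0 lower (0%) by limma. At an unadjusted p under 0.05, 476 probes were lower in the OCT4 than in the SOX2 knock-down, 0 of them by 1.5-fold. The methods' t-test also called 0 lower. With background subtraction, scaling and a floor of 20, 174 were called higher and 3 lower. The count of 16 fell to 3 without OCT4 replicate 1, 2 without SOX2 replicate 1 and 7 without SOX2 replicate 2, and was 26 without OCT4 replicate 2.

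Probes with a name here were called far more often, since the names come from genes the study itself called changed. Among these 2985 probes, 33.9% were called higher and 24.8% lower in the OCT4 knock-down. The shares were 8.58% and 6.9% in the NANOG knock-down and 34.2% and 24.2% in the SOX2 knock-down. The counts below are therefore to be read against these shares, and a list's direction is not independent evidence. The median log2 difference of all probes tested was -0.02, 0.0 and -0.03 under OCT4, NANOG and SOX2 knock-down, and that of named probes was 0.36, 0.03 and 0.33. Scaling arrays to a common median moved the median of all probes in the OCT4 knock-down to 0.10, and background subtraction with a floor of 20 moved it to 0.20.

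Of the CDK inhibitors, an INK4 family and a CIP/KIP family, 3 of 6 genes besides CDKN2B have a name here, and 2 of these 3 were called higher in each knock-down, against 33.9, 8.58 and 34.2% of named probes with OCT4, NANOG or SOX2 silenced. Their median log2 difference was 1.33 in the OCT4, 0.75 in the NANOG and 1.39 in the SOX2 knock-down. CDKN2D encodes p19INK4D, the INK4 relative of p15INK4B. It was detected on all 12 arrays, and its differences of 0.37, 0.11 and 0.44 under OCT4, NANOG and SOX2 knock-down (SE 0.07) were not called. CDKN2D was called higher in some alternatives: with background subtraction and a floor of 20 its difference was 1.17 with OCT4 silenced and 1.11 with SOX2 silenced, and with an offset of 16 it was called with SOX2 silenced. CDKN2B was chosen for its on/off state and CDKN2D was on in mock already, so their contrast is only a description. No trait of the INK4 family is read from it. CDKN2A, which encodes p16INK4A and ARF beside CDKN2B, has no probe with a name here, nor do CDKN2C and CDKN1B.

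CDKN1A encodes p21, the CIP/KIP inhibitor that p53 and TGF-beta induce. Its raw signal was 203.1, 187.5 and 193.8 in mock, 753.3, 718.5 and 699.3 in the OCT4 knock-down, 346.3, 361.3 and 347.7 in the NANOG knock-down and 619.6, 561.1 and 529.9 in the SOX2 knock-down. All 9 knock-down arrays lay above the 3 mock arrays. CDKN1A rose by 1.36 ± 0.07 (SE) in the OCT4 knock-down (limma, adjusted p = 1.35e-11) and by 1.39 ± 0.07 in the SOX2 knock-down (limma, adjusted p = 9.59e-12). In the NANOG knock-down, where CDKN2B stayed off, it rose by 0.75 ± 0.07 (limma, adjusted p = 2.71e-07).

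CDKN1C encodes p57, the CIP/KIP inhibitor from an imprinted locus. Its raw signal was 213.7, 206.8 and 182.7 in mock, 701.1, 790.9 and 702.6 in the OCT4 knock-down, 552.5, 621.6 and 535.9 in the NANOG knock-down and 606.5, 579.0 and 571.8 in the SOX2 knock-down. It rose in every knock-down, by 1.33 ± 0.09 with OCT4 silenced, 1.44 ± 0.09 with NANOG silenced and 1.39 ± 0.09 with SOX2 silenced (limma, adjusted p = 1.63e-09, 3.17e-09 and 7.91e-10). Among the 4 CDK inhibitors with a name here, CDKN2B thus stayed off with NANOG silenced, where CDKN1A and CDKN1C were called higher. CDKN2D, at 0.11, was not called there either.

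**Figure D3:**
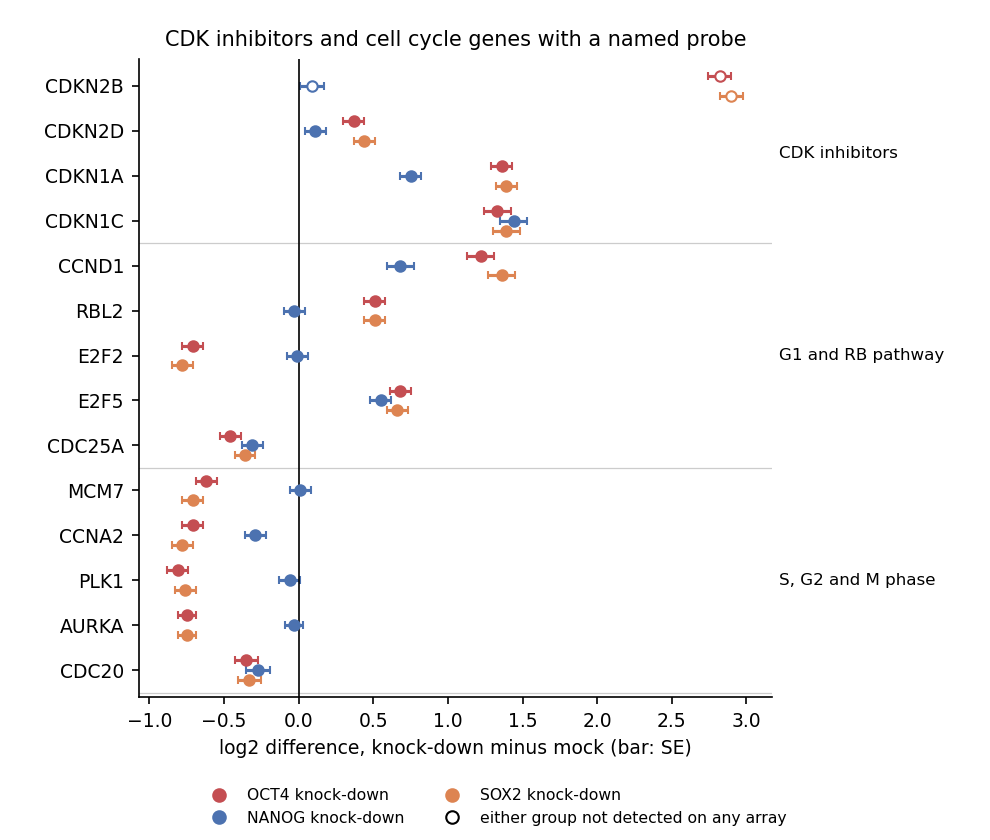
Log2 difference from mock (knock-down minus mock) of each CDK inhibitor and cell cycle gene with a name here, with the SE as bars and open circles where either group was off on all 3 arrays. CDKN2B is near 0 in the NANOG knock-down (0.09), where CDKN1A (0.75) and CDKN1C (1.44) were called higher. CDKN2D (0.11) was not called there.

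Next come the proteins that p15INK4B acts on and the pathway beneath them. CDK4, CDK6 and RB1 have no probe with a name here. Of 22 G1 and RB pathway genes, 5 have one: 2 were called higher and 1 lower in the OCT4 knock-down, the same numbers in the SOX2 knock-down, and 1 higher in the NANOG knock-down. Of named probes, 33.9, 34.2 and 8.58% were called higher in that order, and 24.8, 24.2 and 6.9% lower. The list's median log2 difference was 0.51, -0.01 and 0.51 under OCT4, NANOG and SOX2 knock-down. CCND1, the D cyclin that activates CDK4 and CDK6, rose by 1.22 ± 0.09, 0.68 ± 0.09 and 1.36 ± 0.09 under OCT4, NANOG and SOX2 knock-down (limma, adjusted p = 1.84e-09, 1.37e-05 and 3.89e-10). An inhibitor of the cyclin D kinases and their activating subunit were therefore both higher with OCT4 or SOX2 silenced. E2F2, an activator of S phase genes, fell by 0.71 ± 0.07 in the OCT4 knock-down and by 0.78 ± 0.07 in the SOX2 knock-down, and was at -0.01 in the NANOG knock-down. Over the scalings tried E2F2 lay between -0.76 and -0.44 with OCT4 silenced, and it was not called there with arrays scaled to a common median or with scaling and a floor of 20. E2F5, a repressor that works with RB relatives, rose by 0.68 ± 0.07 and 0.66 ± 0.07 in the OCT4 and SOX2 knock-downs and was at 0.55, not called, with NANOG silenced. The NANOG count was 2 in place of 1 without NANOG replicate 2, with arrays scaled to a common median, or with scaling and a floor of 20.

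Genes of S, G2 and M phase are expressed in cycling cells. Of 27 such genes, 5 have a name here, and 4 of the 5 were called lower in the OCT4 and in the SOX2 knock-down, against 24.8 and 24.2% of named probes. The list's median log2 difference was -0.71 and -0.75. AURKA, a spindle kinase, fell by 0.75 ± 0.06 in the OCT4 knock-down (limma, adjusted p = 7.86e-09) and by 0.75 ± 0.06 in the SOX2 knock-down. MCM7, a subunit of the replicative helicase, fell by 0.62 ± 0.07 in the OCT4 and by 0.71 ± 0.07 in the SOX2 knock-down. CCNA2, the S phase cyclin, and PLK1, a mitotic kinase, also fell, by 0.71 and 0.81 with OCT4 silenced. Under NANOG knock-down limma called 0 of 5, with 2 of 5 at an unadjusted p under 0.05, the methods' t-test called 0 too, and the median was -0.06. The fall in the OCT4 knock-down is small and depends on the scaling: with arrays scaled to a common median, or scaled with a floor of 20, 0 of 5 passed, though over the scalings tried MCM7 stayed between -0.62 and -0.50, and AURKA between -0.77 and -0.54. MCM7 was also not called there without OCT4 replicate 1. In bulk RNA, fewer cells of a kind and less RNA per cell cannot be told apart.

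CDKN2B is a known target of TGF-beta, so the pathway's genes were followed from ligand to target. Of 18 ligands, receptors and SMADs, with the SMAD co-repressor SKI counted among them, 6 have a name here. In the OCT4 and in the SOX2 knock-down 3 of the 6 were called higher, and 1 in the NANOG knock-down. Of named probes, 33.9, 34.2 and 8.58% were called higher in that order. The list's median log2 difference was 0.61, 0.21 and 0.69 under OCT4, NANOG and SOX2 knock-down, or 0.55, 0.19 and 0.63 with genes that were off in a group set at their bound. TGFB2, a ligand, had the on/off states of CDKN2B: off in mock and in the NANOG knock-down, at least 1.46-fold higher in the OCT4 and at least 1.60-fold higher in the SOX2 knock-down. With scaling and a floor of 20 TGFB2 was called in neither, and with arrays scaled to a common median or no background correction it was not called with OCT4 silenced. TGFB2 was tested only because it was on in the OCT4 and SOX2 knock-downs, which favours calls upward. SMAD3 and SMAD6, the others called higher in these knock-downs, were detected on every array. TGFB1 has no probe with a name here. SMAD3, which carries the signal to the nucleus, rose by 0.80 ± 0.07 in the OCT4 and by 0.80 ± 0.07 in the SOX2 knock-down (limma, adjusted p = 1e-08 and 9.8e-09) and was at 0.21 with NANOG silenced. SMAD6, an inhibitory SMAD, rose in all 3 knock-downs, by 1.06, 1.15 and 1.0 with OCT4, NANOG and SOX2 silenced. With background subtraction and a floor of 20, the counts called were 5, 3 and 5 under OCT4, NANOG and SOX2 knock-down, and with arrays scaled to a common median the NANOG count was 2.

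Of 17 TGF-beta induced genes, CDKN2B left out, 10 have a name here. All 10 were called higher in the OCT4 knock-down, with a median log2 difference of 2.52, and all 10 in the SOX2 knock-down, with a median of 2.48, against 33.9% and 34.2% of named probes. Of these genes, THBS1 was detected on 1 array each of mock and the NANOG knock-down, and COL1A1 on 0. THBS1 and COL1A1 were tested only because they were on in the OCT4 and SOX2 knock-downs, which favours calls upward. In the NANOG knock-down 3 of 10 were called higher, with a median of 0.31. TGFBI, a secreted matrix protein, rose by 2.54 and 2.43 in the OCT4 and SOX2 knock-downs and was at -0.14 in the NANOG knock-down. It thus moved with CDKN2B, but from a level already detected in mock. BHLHE40, a transcriptional repressor, rose by 1.99 and 2.22 and was at -0.07 in that order. CCN2, a matrix-associated growth factor, was called higher in the NANOG knock-down as well, by 0.65, against 2.67 and 2.78 in the others.

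The count of 3 in the NANOG knock-down was 6 without NANOG replicate 1, with an offset of 16, with background from inferred negative controls, or with background subtraction and a floor of 20. These 6 were not all higher: FN1, the matrix protein fibronectin, at -0.58 and not called above, was among them as lower. Several of these genes also mark other cells. TAGLN and COL1A1 are at the same time markers of fibroblasts and smooth muscle. All 6 such markers with a name here (of 8) were called higher under OCT4 and SOX2 knock-down, against 33.9 and 34.2% of named probes. The markers' medians were 2.07 and 1.94, or 1.80 and 1.66 at their bounds. Their summed raw signal was 691.0, 622.5 and 636.0 in mock, 5990.8, 5850.1 and 5522.6 in the OCT4 knock-down, 766.0, 766.4 and 726.0 in the NANOG knock-down and 4822.3, 4606.7 and 4711.6 in the SOX2 knock-down. TAGLN had the brightest probe, and COL1A1, COL3A1, LUM and PDGFRB were off on all mock and NANOG knock-down arrays. These 4, and ACTA2, were tested only because they were on in the OCT4 and SOX2 knock-downs, which favours calls upward, and TAGLN alone was detected on all 12 arrays. With NANOG silenced limma called 0 of the 6, with 2 at an unadjusted p under 0.05 and a median of 0.03. The part of these markers in the CDKN2B difference was not tested.

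**Figure D4:**
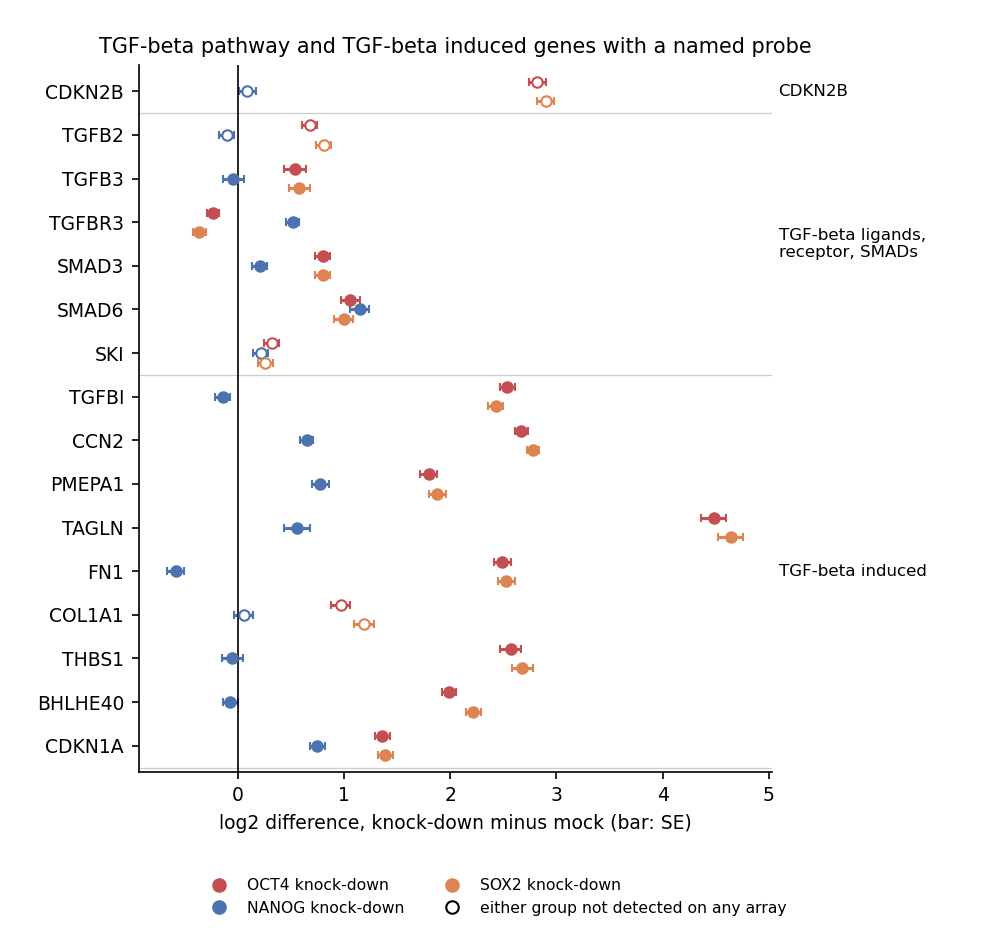
Log2 difference from mock (knock-down minus mock) of CDKN2B, of 6 TGF-beta ligands, receptors and SMADs and of 9 of the 10 TGF-beta induced genes with a name here, with the SE as bars and open circles where either group was off on all 3 arrays. The induced genes shown lie above 0 in the OCT4 and SOX2 knock-downs, TGFBI for example at 2.54 and 2.43.

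The reported repressors of the INK4 locus followed were chiefly Polycomb subunits, T-box factors and DNA methyltransferases. Calls in both directions are common among named probes (33.9% higher and 24.8% lower with OCT4 silenced), so they are no trait of this list. Of 27 genes, 7 have a name here: 2 were called higher and 3 lower in the OCT4 knock-down, 1 higher and 2 lower in the NANOG knock-down, and 2 higher and 4 lower in the SOX2 knock-down. The medians were -0.57, -0.38 and -0.61. PHC1, a Polycomb subunit, fell by 1.80, 1.26 and 1.79 under OCT4, NANOG and SOX2 knock-down (SE 0.07), while its relative PHC2 rose by 1.30, 0.59 and 1.30. The NANOG value of PHC2 was not called with no background correction, scaling and a floor of 20, or cyclic loess, nor without mock replicate 3 or NANOG replicate 2. JARID2, which brings Polycomb complex PRC2 to its targets, fell by 1.91 ± 0.07 and 1.92 ± 0.07 in the OCT4 and SOX2 knock-downs and was at -0.51, not called, with NANOG silenced. EZH2, the methyltransferase of PRC2, was at -0.22, -0.38 and -0.19, not called in any knock-down. DNMT3B, a DNA methyltransferase of undifferentiated cells, fell by 2.30, 0.61 and 2.45, and was not called with NANOG silenced without mock replicate 2 or NANOG replicate 2. A second probe of DNMT3B was called lower in all 3, at -1.41, -0.84 and -1.47. DNMT3B is counted again among the embryonal carcinoma markers below. TBX3, a T-box repressor reported at this locus, was off in mock and the NANOG knock-down and at least 3.62-fold and 3.43-fold higher under OCT4 and SOX2 knock-down, so this repressor and CDKN2B came on in the same arrays. A dimmer probe of TBX3 gave at least 1.18-fold with OCT4 silenced, and was not called with SOX2 silenced. TBX3 was tested only because its probes were on in the OCT4 and SOX2 knock-downs, which favours calls upward. PHC2, the other repressor called higher in these knock-downs, was detected on every array. PCGF2, named after its values were seen, fell by 0.61 in the SOX2 knock-down and was at -0.57, not called, in the OCT4 knock-down. PCGF2 was not called with SOX2 silenced under cyclic loess or without mock replicate 3 or SOX2 replicate 2, and was called with OCT4 silenced without mock replicate 1. BMI1, CBX7 and MYC have no probe with a name here, and the NANOG count of 3 was 1 without NANOG replicate 2.

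Of 17 reported activators of CDKN2B or of the INK4 locus, 9 have a name here. Which of them act on CDKN2B itself was not tested. In the OCT4 knock-down 4 were called higher and 3 lower, in the NANOG knock-down 1 higher and 1 lower, and in the SOX2 knock-down 4 higher and 2 lower. Of named probes, 33.9, 8.58 and 34.2% were called higher and 24.8, 6.9 and 24.2% lower in that order. The list's medians were 0.49, 0.01 and 0.58, or 0.20, 0.01 and 0.30 at the bounds. KLF6, a zinc finger factor of the SP and KLF family that binds GC boxes, rose by 2.08 ± 0.08 in the OCT4 and by 2.21 ± 0.08 in the SOX2 knock-down (limma, adjusted p = 2.52e-13 and 1.05e-13) and was at 0.10 with NANOG silenced. SP1 itself fell by 0.61 ± 0.07 in the OCT4 knock-down and was at -0.54 and -0.11, not called, in the SOX2 and NANOG knock-downs. The SP1 call is marginal: with OCT4 silenced it was lost without mock replicate 3 or OCT4 replicate 2, and under 5 of the 7 scalings tried. RUNX1, a factor of blood and mesoderm, shared the on/off states of CDKN2B and was at least 2.13-fold and 2.12-fold higher under OCT4 and SOX2 knock-down. JUN, a subunit of the AP-1 factor, was off in mock alone and at least 2.64-fold and 3.0-fold higher in these knock-downs. CEBPB, a leucine zipper factor, fell by 0.76, 0.70 and 0.76 under OCT4, NANOG and SOX2 knock-down, and FOXO1 fell by 0.81 with OCT4 or with SOX2 silenced. With OCT4 silenced neither was called when arrays were scaled to a common median or with scaling and a floor of 20. Over the scalings tried FOXO1 lay between -0.85 and -0.56 there, and CEBPB between -0.78 and -0.55, so both stayed lower where the call was lost. ETS2, a factor that binds ETS sites, was off in mock and at least 1.51-fold higher with OCT4 silenced, and its relative ETS1, named after its values were seen, at least 1.27-fold higher with SOX2 silenced. Neither was called in the other of these knock-downs, and both sit near the threshold, with calls that change with the scaling or with 1 array left out. FOXO4, also named after its values were seen, was the activator called higher with NANOG silenced, by 1.20, with 0.04 and 0.01 in the OCT4 and SOX2 knock-downs. Those 2 scalings took the OCT4 count of 7 to 4, all higher, with SP1 not called either, so the lower calls depend on the scaling. Among probes detected on all 12 arrays that count was also 4, with KLF6 higher and SP1, FOXO1 and CEBPB lower, and the SOX2 count of 6 was 3.

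Of 18 arrest genes and p53 targets outside the CDK inhibitor family, 10 have a name here, and 8 were called higher and 2 lower in the OCT4 and in the SOX2 knock-down. The list's medians were 1.42 and 1.47, or 1.38 and 1.42 at the bounds. Of named probes, 33.9 and 34.2% were called higher there and 24.8 and 24.2% lower. With NANOG silenced 3 of the 10 were called higher and 1 lower, with a median of 0.17, against 8.58 and 6.9% of named probes. GADD45A, a stress gene that holds cells before mitosis, rose by 1.98 ± 0.06 in the OCT4 and by 1.91 ± 0.06 in the SOX2 knock-down and was at 0.22 with NANOG silenced. BTG2, an antiproliferative p53 target, rose in all 3, by 1.77, 0.72 and 1.81 with OCT4, NANOG and SOX2 silenced, against a mock level detected on 1 of 3 arrays. Over the scalings tried its difference with NANOG silenced lay between 0.49 and 1.72, and it was not called with no background correction, scaling and a floor of 20, or cyclic loess. SESN3, a sestrin that FOXO factors induce, rose by 2.82, 1.67 and 2.70 in that order, whereas its relative SESN2, a p53 target, fell by 0.90, 1.03 and 0.94. TP53INP1, a p53 target, was off in mock and at least 3.2-fold, 1.86-fold and 3.39-fold higher. RPRM, an arrest gene at G2, went the other way, and fell by 2.18 and 2.08 in the OCT4 and SOX2 knock-downs. Of the 8 called higher, IGFBP3, TP53INP1 and BTG2 were tested only because they were on in knock-downs, which favours calls upward. The others of the 8 were detected on all 12 arrays. Among probes detected on all 12 arrays, 2 in place of 4 were called in the NANOG knock-down.

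CDKN2B is flanked by interferon genes, MTAP and CDKN2A on one side and by DMRTA1, ELAVL2, IZUMO3, TUSC1 and CAAP1 on the other. Of the 12 nearest protein-coding genes, 6 on either side, 1 has a name here: CAAP1, 5 genes away, which encodes a regulator of caspase activity. CAAP1 fell by 0.88 ± 0.08 in the OCT4 knock-down (limma, adjusted p = 6.43e-08) and by 0.86 ± 0.08 in the SOX2 knock-down (limma, adjusted p = 7.63e-08), lower on 3 of 3 normalized arrays each, and was at -0.33, not called, in the NANOG knock-down. This neighbour therefore went the opposite way from CDKN2B. A neighbour that the study did not call changed would have no name here, so CAAP1 does not stand for the region. CDKN2A and DMRTA1, the adjacent genes, and MTAP could not be followed.

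The markers of the cell line itself were present in mock. Of 12 embryonal carcinoma markers, 10 have a name here and all 10 were detected on each mock array, with the brightest probe that of L1TD1. Their summed raw signal was 34332.9, 36646.8 and 33121.9 in mock and 34288.1, 30400.4 and 27931.2 in the NANOG knock-down. It was 18644.7, 14850.7 and 15113.1 in the OCT4 knock-down and 12944.7, 11713.5 and 10180.6 in the SOX2 knock-down. CDKN2B was thus on in the 6 arrays with the lowest sums. In the OCT4 knock-down 10 of 10 were called lower, with a median of -2.22, and in the SOX2 knock-down 9 of 10, with a median of -2.29. At the bounds these 2 medians were -2.15 and -2.20. In the NANOG knock-down 5 of 10 were called lower, with a median of -0.50. Of named probes, 24.8, 24.2 and 6.9% were called lower in that order. The list holds 2 esiRNA targets, POU5F1 (OCT4) and NANOG, each lower in its own knock-down, which leaves 9 of 9 and 4 of 9 others there. LIN28A and SALL4 were called lower with OCT4 silenced near the threshold, at -0.63 and -0.62, and neither was called under 4 of the 7 scalings tried. GATA3, the trophoblast marker with a name here (1 of 5), was at 0.46, -0.42 and 0.34 under OCT4, NANOG and SOX2 knock-down, not called. With background subtraction and a floor of 20 GATA3 was called in all 3, at 1.08, -0.64 and 0.74, and with arrays scaled to a common median it was called higher with OCT4 silenced. Of the 5 endoderm and 4 neural markers listed, 0 have a name here. The part of these cell states in the CDKN2B difference was not tested.

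The genes whose levels ran most like that of CDKN2B were found by Pearson correlation over the 12 normalized arrays, as a description. With 6 arrays on and 6 off, the correlation mostly reads the split between groups: 142 of 12373 other probes reached 0.99, 798 reached 0.95 and 532 lay at -0.95 or below. The 12 most alike were COL11A1 (0.999), CRYAB, ANKRD1, PDLIM1 and ALPK2 (0.998 each), and MYOF, CPE, LMCD1, PDGFRB, LGI1, HBEGF and ANXA1 (0.997 each). They include a fibrillar collagen (COL11A1), a small heat shock protein of muscle and lens (CRYAB), a cardiac ankyrin repeat protein (ANKRD1), a PDZ and LIM protein of actin fibres (PDLIM1), a muscle kinase (ALPK2), a growth factor of the EGF family (HBEGF), the PDGF receptor beta and annexin A1. Their order is not firm: 1 of the 12 was among the 12 most alike by Spearman correlation, and 6 after cyclic loess normalization.

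**Figure D5:**
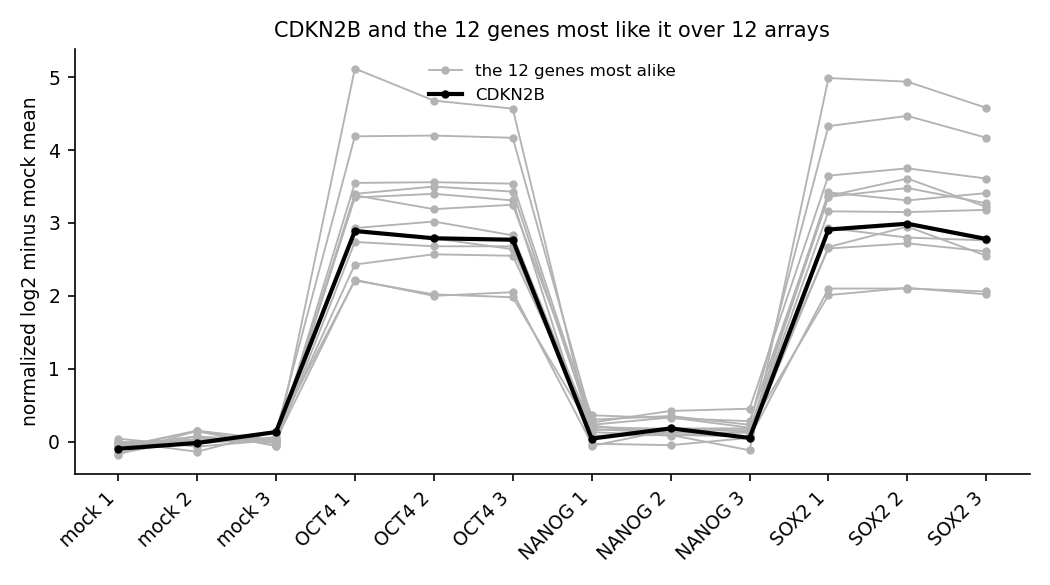
Normalized log2 level minus the mock mean of CDKN2B (black) and of the 12 genes most like it (grey) on 12 arrays, labelled by the silenced factor and the replicate. CDKN2B lies at 2.82 and 2.90 on average on the OCT4 and SOX2 knock-down arrays and at 0.09 on the NANOG knock-down arrays.

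The exact on/off states of CDKN2B, detected on all OCT4 and SOX2 knock-down arrays and on no mock or NANOG knock-down array, were shared by 230 probes including its own, 0.486% of the array, of which 165 have a name here. Picked by their fitted mean log2 difference over mock, 8 others were NPPB (a natriuretic peptide), ANKRD1, ALPK2, ERP27 (an endoplasmic reticulum protein), CRYAB, PAMR1, MAP3K7CL and GLIPR1. Mock was at background for all of these probes, so their differences are not set in order against CDKN2B. Of 102 named genes with these states and a promoter in the table, 51.0% held the GC box printed in capitals above, 40.2% the SMAD element, 1.96% the E-box, 0.98% the octamer and 7.84% the SOX motif. The shares over 35115 promoters were 41.7, 37.1, 6.09, 1.6 and 9.1% in that order. These differences were not tested, and no motif is read as a trait of the pattern.

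Other patterns of detection put this in proportion. In all, 9899 probes were detected on all 12 arrays and 31974 on none. Detection on every knock-down array but no mock array was seen for 89 probes, on the OCT4 knock-down arrays alone for 39, on the NANOG knock-down arrays alone for 21 and on the SOX2 knock-down arrays alone for 1. The reverse of the CDKN2B pattern, on in mock and the NANOG knock-down and off elsewhere, was seen for 42.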

How the data were processed

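RNA of mock, OCT4, NANOG and SOX2 knock-down NCCIT cells (3 biological replicates each) was measured on 12 Illumina arrays. The deposited signals and bead spreads are raw intensity values from BeadStudio 1.0, and the authors' table holds the background-subtracted, rank-invariant normalized mean intensity of each group (column medians 167.4, 146.3, 152.4 and 166.8). The deposited detection score is a fraction from 0 to 1. Signals were corrected by normexp (offset 50), quantile normalized and taken to log2, and fitted in limma 3.58.1 (R 4.3.3) with 1 coefficient per group. Tables and plots used Python 3.11.15, pandas 2.3.3, numpy 2.4.6 and matplotlib 3.10.9. Probes were tested if detected (at least 0.99) on all 3 arrays of at least 1 group. Of 2985 probes named from the study's table, 2481 were matched to RefSeq by accession and 102 by current symbol, and 402 kept the study's symbol. Where a gene had several probes, the brightest stood for it. Named genes are CDKN2B, the targeted factors, all CDK inhibitors and 9p21 neighbours, up to 8 members of each other list with the largest called differences in the OCT4 knock-down, members the background needs, and the 12 genes most like CDKN2B with the 8 largest of its on/off pattern. The members and lists were chosen with earlier results of these data known. Alternatives covered background, offset, normalization, filter, test, replicate block and each array left out. The files name no chip, so chip as a block was not run; comparisons between knock-downs were used only for CDKN2B and the shares called. The array number limits the precision.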

Additional observations from a re-analysis of the deposited data

How the results depend on the processing

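CDKN2B stayed on in 6 arrays and off in 6 at a detection score of 0.95, and leaving out each array in turn kept its difference from mock between 2.76 and 2.88 (OCT4), 0.04 and 0.16 (NANOG) and 2.85 and 2.96 (SOX2). The size of the difference changed with the background and the offset. Mock sits at background, and signals this close to it limit every fold against mock. Alternatives with background from inferred negative controls, and with background subtraction, scaling and a floor of 20, were chosen after seeing the data, as was the highest undetected signal as the floor, which gave at least 5.17-fold (OCT4) and 5.46-fold (SOX2). Causes of these shifts were not tested.

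For CDKN2B, OCT4 minus mock was 2.35 with no background correction, 2.38 with scaling and a floor of 20, 3.64 with offset 16, 2.63 with cyclic loess, 3.06 with inferred negative controls and 4.57 with subtraction and a floor of 20. SOX2 minus mock was 2.42, 2.28, 3.73, 2.64, 3.15 and 4.48 in that order, and 2.68 with median scaling. NANOG minus mock was -0.08 with cyclic loess and -0.01 with median scaling. OCT4 minus NANOG was 2.29 with no background correction, 2.37 with scaling and a floor, 3.47 with offset 16, 3.01 with inferred controls and 4.57 with subtraction and a floor; leaving out arrays gave 2.69 to 2.77. SOX2 minus NANOG was 2.36, 2.27, 3.56, 3.10 and 4.48 in that order, 2.69 with median scaling, and 2.76 to 2.86 leaving out arrays. OCT4 minus SOX2 was 0.10 with scaling and a floor, 0.11 with median scaling, 0.09 with subtraction and a floor, and -0.14 to -0.03 leaving out arrays.

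With subtraction and a floor of 20, 3922 (OCT4), 1575 (NANOG) and 3341 (SOX2) probes were called against mock, and 3213 (OCT4) and 3087 (SOX2) against NANOG. Offset 16 gave 816 in the NANOG knock-down. OCT4 against SOX2 gave 66 with scaling and a floor, 88 with median scaling, 177 with subtraction and a floor, 4 by the methods' t-test (unadjusted) and 1 (adjusted), and 2 to 26 leaving out arrays. The share of calls that were higher was 58.3% in the OCT4 knock-down, but 79.1% with scaling and a floor, 77.2% with median scaling and 78.4% with subtraction and a floor. In the NANOG knock-down 274 were higher and 243 lower, but the share was 63.7% with median scaling and 66.7% with subtraction and a floor. For OCT4 against NANOG it was 60.2%, but 75.4, 73.0 and 73.0% in the order of the OCT4 knock-down. The replicate block gave 1062 probes higher and 759 lower in the OCT4 knock-down, as without it, and 12 for OCT4 against SOX2 in place of 16; of 18 same-numbered pairs, 4 had a residual correlation over 0.1 (-0.399 to 0.416), so the numbers were not read as pairs. The median of all probes for OCT4 minus SOX2 was 0.10, 0.12 and 0.16 under these 3 scalings.

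List counts moved as follows. G1 and RB pathway genes called in the NANOG knock-down were 2 with scaling and a floor, median scaling or subtraction and a floor, and 1 to 2 leaving out arrays. S, G2 and M phase genes called in the OCT4 knock-down were 0 with scaling and a floor or median scaling. TGF-beta ligands, receptors and SMADs called with subtraction and a floor were 5 (OCT4), 3 (NANOG) and 5 (SOX2), and 2 (NANOG) with median scaling. TGF-beta induced genes called in the NANOG knock-down were 6 with offset 16, inferred controls or subtraction and a floor (FN1 among them as lower), and 3 to 6 leaving out arrays. Repressors called in the NANOG knock-down were 1 to 3 leaving out arrays. Activators called in the OCT4 knock-down were 4 with scaling and a floor, median scaling or detection on all 12 arrays, and 3 in the SOX2 knock-down with the last. Arrest genes called in the NANOG knock-down were 2 with detection on all 12 arrays. Of the 12 genes most like CDKN2B, 1 was shared with Spearman correlation and 6 with cyclic loess. Over 213 single-gene values and 4836 alternatives, 4710 kept their side of the threshold, 58 lost the call, 68 gained it and 0 called values changed sign.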
